A study of Mus musculus with 7 samples.

Results

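This report describes 50 mouse genes of TGF-beta, BMP and activin signalling. They were chosen by name from this pathway, and all 50 of them were found among the 27583 genes and unnamed probes of the array, on 79 probes. Expression was measured on 7 Agilent 1-colour arrays of C57BL/6 mouse cells with no agent or time course named in the labels. Fibroblasts prepared individually from embryos at 13.5 days post coitum (MEF) gave 3 arrays, 3 types of hepatocyte-like cells induced from MEF (iHep, titled 4α1, 4α2 and 4α3, here types 1, 2 and 3) gave 1 array each, and adult mouse liver gave 1 hepatocyte array. What was introduced to induce the iHep cells is not stated in the labels, and each type is a single array, so types could not be tested against each other. Differences between MEF 2 and MEF 3 stayed within those of repeated spots on the same array, so both were averaged and counted as 1 sample, which left MEF n = 2, iHep n = 3 and hepatocyte n = 1. MEF 2 and MEF 3 shared slide 2 and MEF 1 was on slide 1, so slide and preparation cannot be told apart between the MEF samples.

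TGF-beta, BMP and activin proteins are secreted dimers that bind paired type I and type II receptor kinases at the cell surface. The receptors phosphorylate Smad proteins, Smad2 and Smad3 for TGF-beta and activin and Smad1 and Smad5 for BMP, which join Smad4 and enter the nucleus. Latent TGF-beta is stored in the matrix on Ltbp proteins, secreted antagonists such as Noggin and Gremlin trap BMPs, and Smad6 and Smad7 inhibit the receptors from inside the cell. In fibroblasts the TGF-beta branch is known for driving matrix production, and in adult liver the BMP branch is known for controlling the iron hormone hepcidin, while the activin subunits of the betaC and betaE kind are known as liver products.

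A level is log2 of the processed signal minus the 75th percentile of its array, so 0 is the 75th percentile of that array, and levels of different genes are not comparable. Changes are differences of group means on this log2 scale ± SE from limma, with adjusted p-values over the 19135 genes tested, and a gene was called at an adjusted p under 0.05. The p-values rest on the spread among these few samples alone, for iHep the spread among types, and the single hepatocyte array was given the spread of the other groups. Where no array of the dimmer group had the probe well above background, the fold is a lower bound ("at least") and the fitted change is no bound. All 50 genes were tested. At the brightest probe, which stands for a gene, 41 of these were well above background on every array, 49 on every MEF array, 47 on every iHep array and 43 on the hepatocyte array.

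The labels were read against marker genes, as signal summed over each list relative to the array's 75th percentile. Hepatocyte markers summed to 0.181 to 0.195 on the MEF arrays, to 327, 595 and 68.0 in iHep types 1, 2 and 3 and to 3096 in hepatocytes. In iHep these sums rest mostly on Apoa1 and Serpina1d, with Alb in types 1 and 2. Of the 10 hepatocyte markers, 5 were called higher in iHep than in MEF and 0 lower, and Cyp7a1 and Cyp2e1 were not well above background in iHep. Fibroblast markers summed to between 819 and 897 in MEF, 160, 169 and 56.2 in the iHep types and 11.8 in hepatocytes. The hepatocyte array also carried signal for all 10 endothelial markers (sum 14.0, against 2.70 to 3.47 in MEF and 0.574 to 2.53 in iHep) and all 10 macrophage and Kupffer cell markers (7.96, against 4.71 to 7.85 and 0.321 to 0.538), and for 6 of 8 stellate cell markers (3.47, against 1.14 to 1.87 and 0.250 to 1.64). On the MEF arrays 6 to 8 of the endothelial, 8 of the macrophage and Kupffer cell and 7 of the stellate markers were well above background. On the iHep arrays these counts were 3 to 4, 3 to 4 and 5 to 6. The endothelial sum of 2.53, that of iHep type 1, rested mostly on Lyve1. The part of these cell types in the results was not tested. In such bulk RNA, fewer cells of a type and less RNA per cell cannot be told apart, and the hepatocyte array sat alone on its slide, so slide and group cannot be told apart there.

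Promoter sequences of RefSeq, build GRCm38.p6, were available for 37 of the 50 genes in 46 windows that run from 250 bases before to 50 after a start. The windows were searched on both strands for GGCGCC, a motif known from BMP-responsive genes, and for CAGACA, a known Smad motif. GGCGCC was in 14 of the 46 windows (30.4%, 12 genes) against 11.9% of all 32851 windows, and CAGACA in 9 of 46 (19.6%, 9 genes) against 21.0% of all. The longer BMP motif TGGCGCC, which contains GGCGCC, was in 0 of the 46 windows and in 4.03% of all. The median GC content was 64.2% in the windows of these genes and 52.7% in all windows. The 250 bases upstream of 4 genes follow, each 5′ to 3′ on the gene's strand (the minus strand), with motif matches in capitals. Inhbc (chr10:127370549-127370798) and Inhbe (chr10:127351849-127352098) are shown because these neighbouring genes were both far higher in hepatocytes than elsewhere. Id2 (chr12:25096093-25096342) is shown as a classical BMP target that was high in hepatocytes, and Grem1 (chr2:113758649-113758898) as the antagonist with the lowest change in iHep.
Inhbc: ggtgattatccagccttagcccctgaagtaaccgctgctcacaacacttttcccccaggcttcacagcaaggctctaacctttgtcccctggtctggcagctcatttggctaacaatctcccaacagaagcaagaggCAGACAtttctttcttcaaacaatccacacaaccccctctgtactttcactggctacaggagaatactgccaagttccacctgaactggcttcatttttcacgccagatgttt
Inhbe: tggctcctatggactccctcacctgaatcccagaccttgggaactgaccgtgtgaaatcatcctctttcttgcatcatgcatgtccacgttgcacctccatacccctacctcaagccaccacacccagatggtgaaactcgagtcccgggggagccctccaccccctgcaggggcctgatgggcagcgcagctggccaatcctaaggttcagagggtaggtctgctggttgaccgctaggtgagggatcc
Id2: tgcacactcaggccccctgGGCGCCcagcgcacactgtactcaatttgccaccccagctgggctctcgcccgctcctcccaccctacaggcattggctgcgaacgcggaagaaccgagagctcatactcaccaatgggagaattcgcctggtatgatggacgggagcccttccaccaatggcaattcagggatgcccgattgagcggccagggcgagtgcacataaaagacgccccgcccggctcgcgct
Grem1: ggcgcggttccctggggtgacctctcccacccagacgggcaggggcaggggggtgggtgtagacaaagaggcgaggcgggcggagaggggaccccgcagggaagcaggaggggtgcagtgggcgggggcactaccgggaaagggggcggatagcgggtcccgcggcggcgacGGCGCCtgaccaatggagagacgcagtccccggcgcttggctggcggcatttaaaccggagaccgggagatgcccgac
Inhbc holds 1 CAGACA that begins 113 bases before the start and Inhbe holds none. Id2 holds 1 GGCGCC that begins 231 bases before the start, and Grem1 holds 1 that begins 78 bases before it. A match describes the letters of the window and is not a site.

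In iHep against MEF, the comparison of the induced cells with the cells they came from, 7 of the 50 genes rose (14.0%, against 10.1% of all genes tested) and 10 fell (20.0%, against 13.2%). The 7 that rose were the ligands Bmp7 and Gdf15, the receptors Acvr1b and Acvr2b, the antagonists Nog and Chrd, and Id1. The 10 that fell were the ligands Tgfb1, Tgfb3, Bmp5 and Inhbb, the receptors Bmpr2 and Acvr2a, the secreted factors Grem1 and Fstl1, the processing enzyme Bmp1, and Smad2. The median change of the 50 was -0.15 and that of all genes -0.044. On 10 genes all 3 iHep arrays lay above all 3 MEF arrays (20.0%, against 24.9% of all genes) and on 19 below (38.0%, against 31.3%). The counts depended on the few samples: without MEF 1 they were 1 higher and 4 lower, without MEF 2 and 3 they were 1 and 3, and without iHep type 1 they were 5 and 6. Tgfb3, Acvr2a, Acvr2b and Grem1 kept the call under every alternative that gave a value. Slide 1 holds MEF 1 and the 3 iHep arrays, and within it all 17 called genes had the same direction. That was given in advance, because for each of them the iHep arrays lay entirely above or entirely below the MEF arrays. The comparison within slide 1 uses the same MEF and iHep arrays as leaving out MEF 2 and 3, so it is no separate check.

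In hepatocyte against MEF, 8 of the 50 rose (16.0%, against 28.4% of all genes) and 20 fell (40.0%, against 25.1%), with a median change of -1.17 against 0.145 over all genes. Quantile normalization moved that median of all genes to -0.002. Without MEF 1 the count of higher genes was 4. In iHep against hepatocyte, which shares its arrays with the other comparisons, 19 were higher in iHep (38.0%, against 22.1%) and 6 lower (12.0%, against 27.1%), with a median of 0.89 against -0.174. The hepatocyte array held the lowest of the 7 levels for 25 of the 50 genes and the highest for 7, where the shares over all genes were 32.3% and 39.6%.

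**Figure D1:**
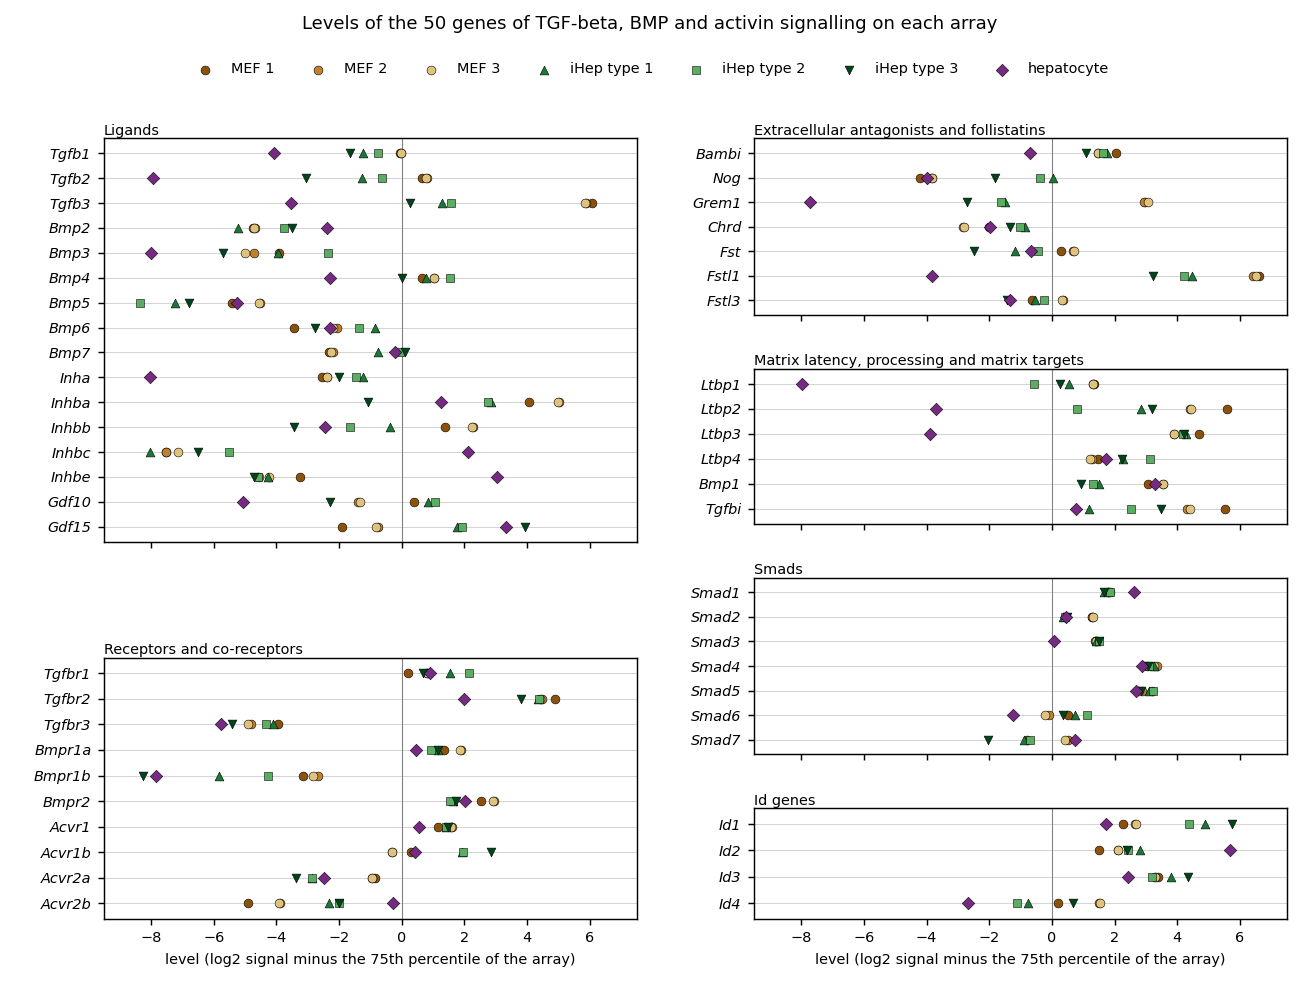
Levels of the 50 genes on the 7 arrays, by class. The x axis is the log2 processed signal minus the 75th percentile of the array, circles are MEF arrays, green symbols the 3 iHep types and diamonds the hepatocyte array; levels near -6 and below are mostly not well above background. The hepatocyte diamond is the lowest symbol for 25 genes and the highest for 7.

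Of the 16 ligands, 2 rose and 4 fell in iHep against MEF, and 5 rose and 6 fell in hepatocytes against MEF. In iHep against hepatocytes 6 were higher and 2 lower. Over all genes tested, 10.1% were called higher and 13.2% lower in the first comparison and 28.4% and 25.1% in the second. In the third these shares were 22.1% and 27.1%, and the counts of the classes below are to be read beside the same shares. The 3 TGF-beta ligands were all lower in hepatocytes than in MEF, and Tgfb1 and Tgfb3 were also lower in iHep. Tgfb3, an isoform typical of mesenchyme, had levels of 6.06, 5.88 and 5.86 on MEF arrays 1, 2 and 3, 1.29, 1.58 and 0.27 in iHep types 1, 2 and 3 and -3.52 in hepatocytes. The groups did not overlap, and iHep lay between the other two. Tgfb3 fell by 4.92 ± 0.43 in iHep (30.2-fold, adjusted p = 0.00296) and fell by 9.48 ± 0.58 in hepatocytes (716-fold, adjusted p = 0.000418), and iHep was 23.7-fold above hepatocytes (4.57 ± 0.55, adjusted p = 0.00284).

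Tgfb1, the most widely expressed isoform, stood at -0.07, -0.01 and -0.01 in MEF, at -1.24, -0.77 and -1.65 in iHep and at -4.07 in hepatocytes. The order was again MEF, iHep, hepatocyte, with no overlap. Tgfb1 fell by 1.17 ± 0.30 in iHep (2.26-fold, adjusted p = 0.0498) and fell by 4.03 ± 0.41 in hepatocytes (16.3-fold, adjusted p = 0.00147), and the difference of iHep from hepatocytes was 2.86 ± 0.38 (adjusted p = 0.00392). Tgfb2 levels were 0.64, 0.82 and 0.77 in MEF and -1.26, -0.64 and -3.06 in iHep, and in hepatocytes the probe was not well above background (-7.95). Every iHep array lay below MEF, but type 3 was far below the other types, and the change of -2.37 ± 0.74 did not pass (adjusted p = 0.0815). Tgfb2 was at least 88.8-fold lower in hepatocytes than in MEF (adjusted p = 0.00217) and at least 17.2-fold higher in iHep than in hepatocytes (adjusted p = 0.00547, and 0.0667 with normexp background correction). The call of Tgfb1 in iHep was lost with no filter on dim probes, without MEF 1, without MEF 2 and 3, and without iHep type 1 or 3. Over 14 alternatives its change ran from -1.4 to -0.96.

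Among the BMP ligands, Bmp7 rose in both iHep and hepatocytes, Bmp4 overlapped between MEF and iHep and was lower in hepatocytes, and Bmp5 fell in iHep. Bmp7, a ligand of epithelia and kidney, had levels of -2.32, -2.20 and -2.26 in MEF, -0.75, -0.06 and 0.10 in iHep and -0.22 in hepatocytes. Every iHep array and the hepatocyte array lay above every MEF array, and the hepatocyte level fell within the iHep range. Bmp7 rose by 2.04 ± 0.31 in iHep (4.10-fold, adjusted p = 0.0119) and by 2.05 ± 0.41 in hepatocytes (4.13-fold, adjusted p = 0.0121). Its second probe moved the same way, by 1.88 and 1.81. Without MEF 1 both Bmp7 calls were lost, and the call in iHep was also lost without MEF 2 and 3 (adjusted p from 0.00202 to 0.0813 over 14 alternatives).

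Bmp4, a ligand of mesenchyme and early patterning, stood at 0.65, 1.02 and 1.04 in MEF, at 0.78, 1.55 and 0.00 in iHep and at -2.29 in hepatocytes. MEF and iHep overlapped, with a difference of -0.07 ± 0.49 (adjusted p = 0.936), and both lay above hepatocytes. Bmp4 was 8.76-fold lower in hepatocytes than in MEF (-3.13 ± 0.65, adjusted p = 0.0135, and up to 0.0583 without MEF 2 and 3) and 8.37-fold higher in iHep than in hepatocytes (3.07 ± 0.62, adjusted p = 0.0134). Bmp2, which liver endothelium is known to make, had levels of -4.76, -4.68 and -4.72 in MEF, -5.21, -3.76 and -3.51 in iHep and -2.39 in hepatocytes. The hepatocyte array lay above all others, and the iHep types fell on both sides of MEF. Bmp2 was 5.06-fold higher in hepatocytes than in MEF (2.34 ± 0.74, adjusted p = 0.0480), a call lost in 5 of 12 alternatives, among them those without MEF 1, without MEF 2 and 3 and without iHep type 2 (adjusted p from 0.00641 to 0.138). Endothelial marker signal was higher on the same array, as given above, and its part in the Bmp2 level was not tested.

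Bmp5 levels were -5.43, -4.51 and -4.57 in MEF and -5.26 in hepatocytes, and no iHep array had its probe well above background (-7.25, -8.34 and -6.79). It was at least 2.10-fold lower in iHep than in MEF (adjusted p = 0.0336), and its other 2 probes were not well above background. This call was lost in 7 of 13 alternatives, among them those without MEF 1, without MEF 2 and 3 and without iHep type 1. The authors' deposited values, normexp background correction and the mean of its probes also ended it. Over the alternatives the change ran from -2.92 to -0.49. Bmp6, the main iron-regulating ligand of liver endothelium, had levels from -3.45 to -2.08 in MEF, from -2.78 to -0.87 in iHep and of -2.29 in hepatocytes, and passed in no comparison. Bmp3, an atypical BMP that opposes the others, had levels of -3.93, -4.72 and -4.99 in MEF and -3.96, -2.35 and -5.71 in iHep, was not well above background in hepatocytes (-7.99) and also passed in no comparison.

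Among the activin and inhibin subunits, betaC and betaE were high in hepatocytes and stayed low in iHep. Inhbc, the betaC subunit, was not well above background in MEF (-7.53, -7.52 and -7.15), was so in iHep type 2 only (-8.04, -5.51 and -6.50 in types 1, 2 and 3) and stood at 2.12 in hepatocytes. Inhbe, the betaE subunit, had levels of -3.26, -4.56 and -4.23 in MEF, -4.28, -4.59 and -4.70 in iHep and 3.03 in hepatocytes. For both genes the hepatocyte array stood far above the other 6 arrays, among which MEF and iHep overlapped.

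Inhbc was at least 333-fold higher in hepatocytes than in MEF (adjusted p = 0.00171), and iHep was below hepatocytes (adjusted p = 0.00209), with no fold given because 2 of the 3 iHep arrays were not well above background. A second Inhbc probe was well above background in hepatocytes alone. Inhbe was 116-fold higher in hepatocytes than in MEF (6.85 ± 0.52, adjusted p = 0.000661), and iHep was 187-fold below hepatocytes (-7.55 ± 0.49, adjusted p = 0.000534). Neither gene differed between iHep and MEF past the threshold (0.75 ± 0.76, adjusted p = 0.514, for Inhbc and -0.70 ± 0.39, adjusted p = 0.255, for Inhbe). In the array's own annotation, build mm8, the probes lie on chromosome 10 at 126759758 to 126759817 for Inhbc and 126752612 to 126752671 for Inhbe.

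Inhbb, the betaB subunit, had levels of 1.39, 2.26 and 2.25 in MEF, -0.39, -1.65 and -3.43 in iHep and -2.46 in hepatocytes. The iHep arrays all lay below MEF, spread over 3.04 log2 units. Inhbb fell by 3.65 ± 0.93 in iHep (12.6-fold, adjusted p = 0.0484) and fell by 4.29 ± 1.25 in hepatocytes (19.5-fold, adjusted p = 0.0373). Its second probe moved the same way in iHep (-2.44) and the opposite way in hepatocytes (1.34), where that probe had its highest level of the 7 arrays (-1.83). The mean of both probes ended the hepatocyte call (-1.48, adjusted p = 0.140). Both calls were lost without MEF 1, without MEF 2 and 3 and without iHep type 2, and the call in iHep also with no filter on dim probes. Over the alternatives the change ran from -4.37 to -2.85 in iHep and from -4.72 to -1.48 in hepatocytes.

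Inhba, the betaA subunit of activin A, stood at 4.05, 5.01 and 4.97 in MEF, at 2.84, 2.75 and -1.07 in iHep and at 1.24 in hepatocytes. Types 1 and 2 were close to each other and type 3 was 15.1-fold below the highest type. With this spread neither the change in iHep (-3.01 ± 1.33, adjusted p = 0.167) nor that in hepatocytes (-3.28 ± 1.78, adjusted p = 0.175) passed. Inha, the inhibin alpha subunit that turns activins into inhibins, had levels of -2.55, -2.37 and -2.38 in MEF and -1.24, -1.46 and -1.99 in iHep and was not well above background in hepatocytes (-8.02). The iHep arrays all lay above MEF, by 0.90 ± 0.28, which did not pass (adjusted p = 0.0809). Inha was at least 9.81-fold lower in hepatocytes than in MEF (adjusted p = 0.000520) and at least 18.3-fold higher in iHep than in hepatocytes (adjusted p = 0.000345) at its brightest probe. The second probe, also not well above background in hepatocytes, had changes of -0.97 and 1.32.

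Both GDF ligands of the list were detected on every array. Gdf15, a stress-induced circulating factor, had levels of -1.90, -0.77 and -0.82 in MEF, 1.75, 1.93 and 3.92 in iHep and 3.31 in hepatocytes. Every iHep array and the hepatocyte array stood above every MEF array, and the hepatocyte level lay within the iHep range. Gdf15 rose by 3.88 ± 0.78 in iHep (14.7-fold, adjusted p = 0.0260) and by 4.66 ± 1.05 in hepatocytes (25.2-fold, adjusted p = 0.0170). Both calls were lost without MEF 1 and the call in iHep without MEF 2 and 3 (adjusted p up to 0.144 and 0.0715). Gdf10, also called Bmp3b, had levels of 0.40, -1.40 and -1.34 in MEF, 0.85, 1.06 and -2.28 in iHep and -5.05 in hepatocytes. MEF and iHep overlapped, and hepatocytes lay below both. Gdf10 was 30.5-fold higher in iHep than in hepatocytes (4.93 ± 1.52, adjusted p = 0.0471), a call lost in 6 of 12 alternatives, among them those without either MEF sample and without iHep type 1 or 2 (adjusted p from 0.00746 to 0.101).

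**Figure D2:**
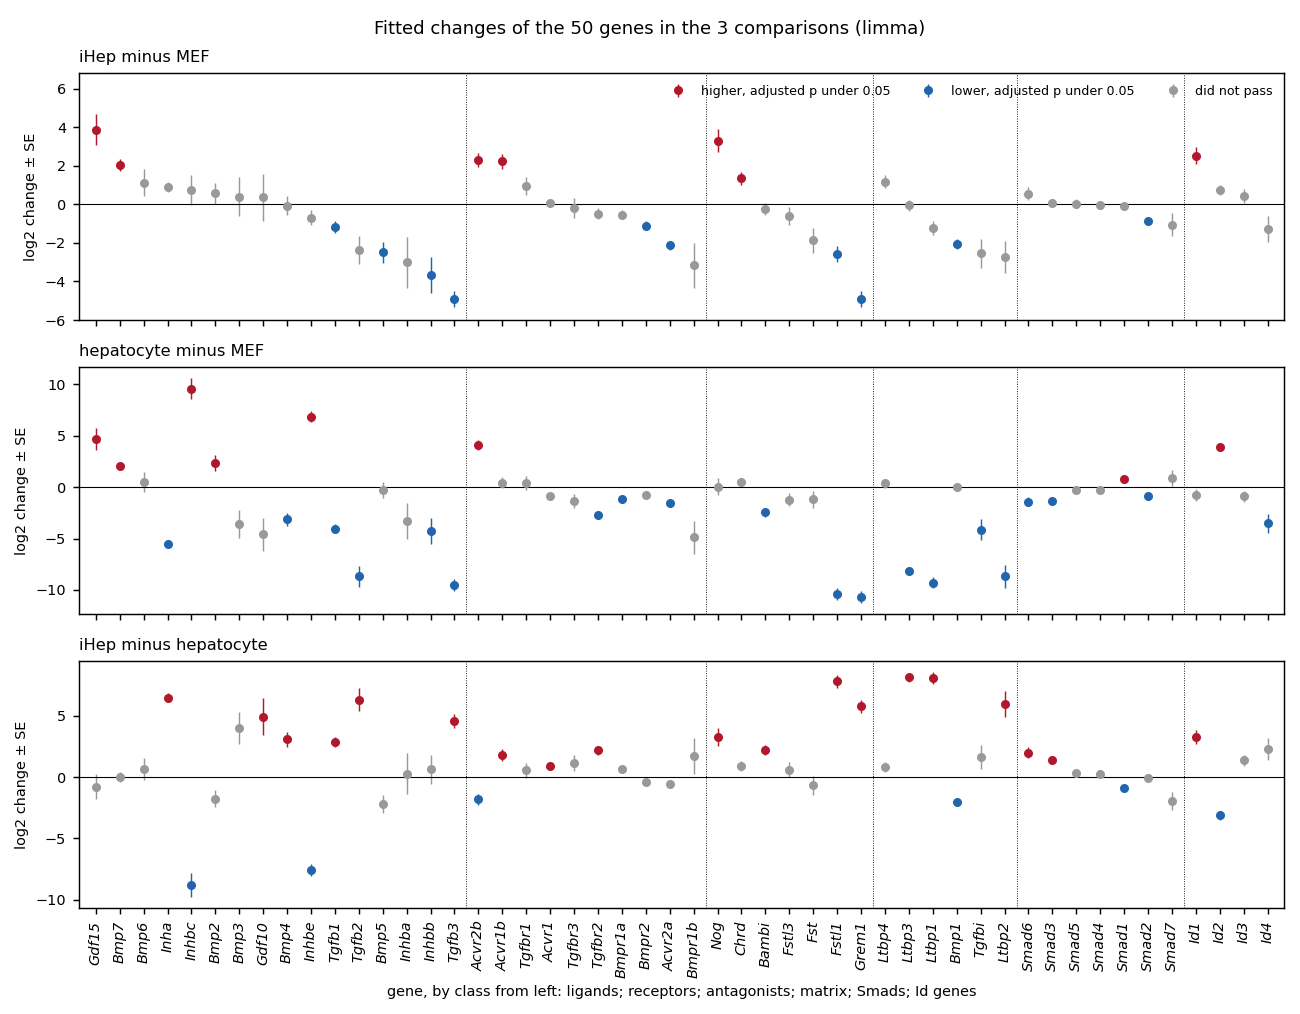
Fitted log2 changes ± SE (y axes) of the 50 genes in the 3 comparisons, from limma with MEF n = 2, iHep n = 3 and hepatocyte n = 1. Dotted lines separate classes, red and blue mark calls, and values of genes not well above background in one group are no bounds. Of the 50 genes, 7 were higher and 10 lower in iHep than in MEF, 8 and 20 in hepatocytes than in MEF, and 19 and 6 in iHep than in hepatocytes.

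Of the 10 receptors, 2 rose and 2 fell in iHep against MEF (1 and 3 in hepatocytes against MEF, and 3 and 1 in iHep against hepatocytes). Acvr2a and Acvr2b, the 2 type II receptors that bind activins and several BMPs, moved in opposite directions. Acvr2a levels were -0.86, -0.94 and -0.96 in MEF, -2.87, -2.88 and -3.36 in iHep and -2.49 in hepatocytes. Acvr2b levels were -4.92, -3.89 and -3.91 in MEF, -2.33, -2.01 and -2.01 in iHep and -0.29 in hepatocytes. In iHep and hepatocytes every array of Acvr2a lay below, and every array of Acvr2b above, all MEF arrays.

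Acvr2a fell by 2.13 ± 0.23 in iHep (4.38-fold, adjusted p = 0.00513) and fell by 1.59 ± 0.31 in hepatocytes (3.01-fold, adjusted p = 0.0112). One of its other probes moved the same way in iHep (-0.83) and by 0.07 in hepatocytes, and the mean of its probes ended the hepatocyte call (-0.34, adjusted p = 0.405). Acvr2b rose by 2.29 ± 0.35 in iHep (4.90-fold, adjusted p = 0.0126) and by 4.12 ± 0.47 in hepatocytes (17.4-fold, adjusted p = 0.00214), and iHep was 3.55-fold below hepatocytes (-1.83 ± 0.45, adjusted p = 0.0240, and up to 0.0631 without iHep type 1 or 2).

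Acvr1b, the type I activin receptor ALK4, stood at 0.30, -0.31 and -0.32 in MEF, at 1.93, 1.95 and 2.84 in iHep and at 0.41 in hepatocytes. The iHep arrays lay above all others, and MEF and hepatocytes were close together. Acvr1b rose by 2.24 ± 0.39 in iHep (4.74-fold, adjusted p = 0.0169, and up to 0.103 without MEF 1 or without MEF 2 and 3) and was 3.55-fold above hepatocytes there (1.83 ± 0.49, adjusted p = 0.0312). Leaving out either MEF sample or iHep type 1 also ended the latter call (adjusted p up to 0.0507). Acvr1, the type I receptor ALK2, had levels of 1.16, 1.61 and 1.58 in MEF, 1.42, 1.40 and 1.47 in iHep and 0.54 in hepatocytes. It was called higher in iHep than in hepatocytes only (0.89 ± 0.26, 1.85-fold, adjusted p = 0.0412). This call was lost with no filter on dim probes and without any 1 iHep type (adjusted p up to 0.0984).

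The TGF-beta receptors did not change in iHep past the threshold. Tgfbr2, the type II receptor that binds TGF-beta, had levels of 4.88, 4.46 and 4.41 in MEF, 4.33, 4.37 and 3.81 in iHep and 1.99 in hepatocytes. All iHep arrays lay just below all MEF arrays (-0.48 ± 0.28, adjusted p = 0.263), and the hepatocyte array lay well below both. Tgfbr2 was 6.36-fold lower in hepatocytes than in MEF (-2.67 ± 0.37, adjusted p = 0.00378) and 4.54-fold higher in iHep than in hepatocytes (2.18 ± 0.35, adjusted p = 0.00661, and 0.90 with adjusted p = 0.0677 for the mean of its probes). Tgfbr1, the type I receptor ALK5, had levels from 0.21 to 0.82 in MEF, from 0.68 to 2.15 in iHep and of 0.91 in hepatocytes, and Tgfbr3, the co-receptor betaglycan, from -4.91 to -3.96, from -5.41 to -4.10 and of -5.78, where it was not well above background. Neither passed in any comparison.

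Among BMP receptors, Bmpr2, the type II receptor, fell in iHep. Its levels were 2.54, 2.94 and 2.91 in MEF, 1.63, 1.53 and 1.72 in iHep and 2.01 in hepatocytes. All iHep arrays lay below the hepatocyte array and below all MEF arrays. Bmpr2 fell by 1.1 ± 0.21 in iHep (2.15-fold, adjusted p = 0.0212), and both other probes moved the same way (-0.93 and -0.52). The call was lost without MEF 1, without MEF 2 and 3 and without iHep type 1 or 2 (adjusted p from 0.00328 to 0.110). Bmpr1a, the type I receptor ALK3 through which liver senses iron-related BMP, stood at 1.35, 1.89 and 1.87 in MEF, at 1.14, 0.92 and 1.16 in iHep and at 0.46 in hepatocytes. Its iHep arrays lay between the groups, and it was 2.24-fold lower in hepatocytes than in MEF (-1.16 ± 0.32, adjusted p = 0.0312). This call was lost with no filter on dim probes, without MEF 2 and 3 and without iHep type 1 or 2. Over 12 alternatives the change ran from -1.43 to -0.89. Bmpr1b, the type I receptor ALK6, had levels of -3.15, -2.68 and -2.82 in MEF, was well above background in iHep type 2 only (-5.82, -4.27 and -8.27) and not in hepatocytes (-7.83). No comparison of Bmpr1b passed, although every MEF array lay above every other array (adjusted p = 0.119 in iHep).

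Of the 7 antagonists and follistatins, Nog and Chrd rose and Grem1 and Fstl1 fell in iHep, 3 fell and none rose in hepatocytes against MEF, and 4 were higher and none lower in iHep than in hepatocytes. Nog, which encodes the BMP trap Noggin, had levels of -4.20, -3.82 and -3.83 in MEF, 0.05, -0.37 and -1.81 in iHep and -3.98 in hepatocytes. The iHep arrays stood above all others, and the hepatocyte level fell within the MEF range. Nog rose by 3.30 ± 0.59 in iHep against MEF (9.86-fold, adjusted p = 0.0193) and was 9.62-fold higher in iHep than in hepatocytes (3.27 ± 0.75, adjusted p = 0.0202). The first of these calls was lost without MEF 1, without MEF 2 and 3 and without iHep type 2 (adjusted p from 0.00447 to 0.117).

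Grem1, which encodes the BMP trap Gremlin 1, stood at 2.97, 2.94 and 3.06 in MEF and at -1.51, -1.63 and -2.71 in iHep, and was not well above background in hepatocytes (-7.71). No iHep array came near a MEF array. Grem1 fell by 4.93 ± 0.42 in iHep (30.6-fold, adjusted p = 0.00267) and was at least 428-fold lower in hepatocytes than in MEF (adjusted p = 0.000299) and at least 14.0-fold higher in iHep than in hepatocytes (adjusted p = 0.00126).

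Chrd, which encodes the BMP trap Chordin, had levels of -2.0, -2.84 and -2.82 in MEF, -0.87, -1.03 and -1.33 in iHep and -1.96 in hepatocytes. All iHep arrays lay above all others. Chrd rose by 1.34 ± 0.32 in iHep (2.53-fold, adjusted p = 0.0411), a call lost in 7 of 14 alternatives, which include leaving out any 1 sample of either group (adjusted p from 0.00974 to 0.156). Fstl1, a secreted follistatin-like glycoprotein, stood at 6.61, 6.43 and 6.51 in MEF, at 4.46, 4.21 and 3.21 in iHep and at -3.83 in hepatocytes. The groups did not overlap, with iHep nearer to MEF. Fstl1 fell by 2.58 ± 0.42 in iHep (5.98-fold, adjusted p = 0.0145, and up to 0.0943 without MEF 1 or without MEF 2 and 3) and fell by 10.37 ± 0.56 in hepatocytes (1327-fold, adjusted p = 0.000321), and iHep was 222-fold above hepatocytes (7.79 ± 0.53, adjusted p = 0.000594).

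Fst, the activin trap follistatin, had levels of 0.30, 0.67 and 0.71 in MEF, -1.18, -0.45 and -2.48 in iHep and -0.68 in hepatocytes. All iHep arrays lay below all MEF arrays, and the change of -1.87 ± 0.63 did not pass (adjusted p = 0.0946). Fstl3, a relative of follistatin, ranged from -0.62 to 0.35 in MEF, from -1.44 to -0.25 in iHep and stood at -1.35 in hepatocytes, with no call. Bambi, a receptor-like protein without a kinase that blocks signalling, stood at 2.03, 1.47 and 1.48 in MEF, at 1.77, 1.64 and 1.1 in iHep and at -0.71 in hepatocytes. MEF and iHep overlapped and hepatocytes lay below both. Bambi was 5.51-fold lower in hepatocytes than in MEF (-2.46 ± 0.41, adjusted p = 0.00682) and 4.64-fold higher in iHep than in hepatocytes (2.21 ± 0.39, adjusted p = 0.00882). Its second probe was not well above background, and the mean of both ended the calls (-1.12, adjusted p = 0.131, and 0.99, adjusted p = 0.158).

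Of the 6 genes of matrix latency, processing and matrix targets, none rose and only Bmp1 fell in iHep, while 4 fell in hepatocytes. Ltbp3, a latent TGF-beta binding protein, had levels of 4.70, 3.89 and 3.89 in MEF, 4.29, 4.18 and 4.23 in iHep and -3.89 in hepatocytes. MEF and iHep overlapped (-0.06 ± 0.29, adjusted p = 0.904), and the hepatocyte array stood far below. Ltbp3 was 291-fold lower in hepatocytes than in MEF (-8.18 ± 0.38, adjusted p = 0.000246) and 279-fold higher in iHep than in hepatocytes (8.13 ± 0.36, adjusted p = 0.000229). Its second probe had changes of -3.94 and 3.70 in these comparisons.

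Ltbp1 stood at 1.33, 1.31 and 1.30 in MEF and at 0.55, -0.58 and 0.26 in iHep at its brightest probe, which was not well above background in hepatocytes (-7.97). All iHep arrays lay below all MEF arrays, and the change of -1.24 ± 0.37 did not pass (adjusted p = 0.0744). At that probe Ltbp1 was lower in hepatocytes than in MEF (at least 135-fold, adjusted p = 0.000322) and than in iHep (at least 57.1-fold, adjusted p = 0.000409). All 7 arrays had the second Ltbp1 probe well above background, at -2.14, -2.85 and -2.75 in MEF, -3.25, -4.21 and -3.64 in iHep and -4.44 in hepatocytes, so the bounds hold for the brightest probe alone. Its changes were -1.97 in hepatocytes against MEF and 0.74 in iHep against hepatocytes. Ltbp2, a relative that binds microfibrils, had levels of 5.58, 4.40 and 4.45 in MEF, 2.85, 0.81 and 3.20 in iHep and -3.69 in hepatocytes. The groups did not overlap, and type 2 was the lowest iHep type. The change in iHep of -2.72 ± 0.83 did not pass (adjusted p = 0.0757), whereas Ltbp2 was 413-fold lower in hepatocytes than in MEF (adjusted p = 0.00296) and 62.9-fold higher in iHep than in hepatocytes (adjusted p = 0.00881). Ltbp4 stood from 1.22 to 1.48 in MEF, from 2.25 to 3.12 in iHep and at 1.72 in hepatocytes, and its change in iHep of 1.18 ± 0.34 did not pass (adjusted p = 0.0659).

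Bmp1, a metalloprotease that cuts procollagen and Chordin rather than a BMP ligand, had levels of 3.08, 3.53 and 3.56 in MEF, 1.49, 1.31 and 0.93 in iHep and 3.30 in hepatocytes on its brightest probe. The iHep arrays lay below all others, and the hepatocyte level fell within the MEF range on this probe. On the second probe the hepatocyte level lay below MEF (change -1.94). Bmp1 fell by 2.07 ± 0.27 in iHep against MEF (4.20-fold, adjusted p = 0.00786, and up to 0.0563 without MEF 2 and 3) and was 4.16-fold lower in iHep than in hepatocytes (-2.06 ± 0.34, adjusted p = 0.00729). Tgfbi, a matrix protein induced by TGF-beta, stood at 5.52, 4.32 and 4.40 in MEF, at 1.19, 2.53 and 3.48 in iHep and at 0.78 in hepatocytes. The groups did not overlap. The change in iHep of -2.54 ± 0.76 did not pass (adjusted p = 0.0724), and Tgfbi was 17.9-fold lower in hepatocytes than in MEF (-4.16 ± 1.02, adjusted p = 0.0221, and up to 0.0876 without MEF 1).

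The Smads changed by small amounts. In iHep against MEF only Smad2 was called, and none of these 7 Smads differed by more than 2.70-fold in hepatocytes against MEF. Smad2, a TGF-beta and activin Smad, had levels of 1.29, 1.29 and 1.31 in MEF, 0.36, 0.43 and 0.48 in iHep and 0.46 in hepatocytes. The iHep and hepatocyte arrays lay together below MEF. Smad2 fell by 0.87 ± 0.17 in iHep (1.83-fold, adjusted p = 0.0232) and fell by 0.83 ± 0.23 in hepatocytes (1.77-fold, adjusted p = 0.0307). Both calls were lost with no filter on dim probes, without MEF 1, without MEF 2 and 3 and without iHep type 1 or 2. Over the alternatives the change ran from -0.9 to -0.79 in iHep and from -0.86 to -0.79 in hepatocytes.

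Smad3, its partner in the same branch, stood at 1.36, 1.43 and 1.40 in MEF, at 1.42, 1.49 and 1.50 in iHep and at 0.08 in hepatocytes. MEF and iHep overlapped and hepatocytes lay below both. Smad3 was 2.47-fold lower in hepatocytes than in MEF (-1.31 ± 0.22, adjusted p = 0.0073) and 2.62-fold higher in iHep than in hepatocytes (1.39 ± 0.21, adjusted p = 0.00565). Smad1, a BMP Smad, had levels of 1.80, 1.83 and 1.85 in MEF, 1.66, 1.85 and 1.65 in iHep and 2.61 in hepatocytes. The hepatocyte array lay above all others. Smad1 was 1.73-fold higher in hepatocytes than in MEF (0.79 ± 0.24, adjusted p = 0.0402) and 1.86-fold lower in iHep than in hepatocytes (-0.89 ± 0.22, adjusted p = 0.0259). These calls were lost in 8 and 7 of 12 alternatives, among them quantile normalization and those without either MEF sample or without iHep type 1 or 2 (adjusted p up to 0.116 and 0.0774).

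Smad6, the inhibitory Smad of the BMP branch, stood at 0.51, -0.10 and -0.21 in MEF, at 0.75, 1.12 and 0.36 in iHep and at -1.25 in hepatocytes. MEF and iHep overlapped and hepatocytes lay below both. Smad6 was 2.70-fold lower in hepatocytes than in MEF (-1.43 ± 0.45, adjusted p = 0.0461, lost in 6 of 12 alternatives with values up to 0.144, among them without MEF 1, without MEF 2 and 3 and without iHep type 1 or 2) and 3.98-fold higher in iHep than in hepatocytes (1.99 ± 0.42, adjusted p = 0.0158). Smad4, the shared partner, ranged from 2.87 to 3.34 over the 7 arrays, and Smad5, the other BMP Smad, from 2.69 to 3.21. Smad7, the inhibitory Smad induced by TGF-beta, ranged from -0.80 to 0.50 in MEF and from -2.04 to -0.71 in iHep and stood at 0.74 in hepatocytes. None of these 3 passed in any comparison.

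Id1 and Id2, both known as direct BMP targets that encode inhibitors of bHLH transcription factors, differed in where they were high. Id1 levels were 2.28, 2.65 and 2.68 in MEF, 4.88, 4.38 and 5.76 in iHep and 1.72 in hepatocytes. Id2 levels were 1.49, 2.11 and 2.12 in MEF, 2.80, 2.42 and 2.40 in iHep and 5.67 in hepatocytes. The iHep arrays stood above all others for Id1, and the hepatocyte array stood above all others for Id2.

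Id1 rose by 2.53 ± 0.45 in iHep (5.78-fold, adjusted p = 0.0184), and its second probe by 2.62. This call was lost without MEF 1, without MEF 2 and 3 and without iHep type 1 (adjusted p from 0.00423 to 0.114). In hepatocytes the Id1 change against MEF was -0.75 and did not pass, and iHep was 9.73-fold above hepatocytes (3.28 ± 0.57, adjusted p = 0.00844). Id2 rose by 3.87 ± 0.37 in hepatocytes (14.6-fold, adjusted p = 0.00126), and its second probe by 3.78. In iHep the Id2 change was 0.74 ± 0.28 (adjusted p = 0.119), and iHep was 8.77-fold below hepatocytes (-3.13 ± 0.35, adjusted p = 0.00225). Id4 stood at 0.21, 1.50 and 1.55 in MEF, at -0.76, -1.1 and 0.68 in iHep and at -2.67 in hepatocytes, lowest in hepatocytes with MEF and iHep overlapping. It was 11.6-fold lower in hepatocytes than in MEF (-3.53 ± 0.92, adjusted p = 0.0266, and up to 0.0916 without MEF 2 and 3). Id3 ranged from 3.29 to 3.37 in MEF and from 3.18 to 4.33 in iHep, stood at 2.42 in hepatocytes and passed in no comparison.

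The iHep types differed among themselves in these genes, which single arrays allow to describe but not to test. On 11 of the 50 genes the levels of the 3 types spanned over 2 log2 units with at least 1 type well above background (22.0%, against 8.07% of all genes tested). They were Inhba, Bmp3, Gdf10, Inhbb, Tgfb2, Ltbp2, Tgfbi, Gdf15 and Fst, with spans from 15.1-fold for Inhba to 4.11-fold for Fst, and Bmpr1b and Inhbc, whose spans rest on background values because only 1 of 3 iHep arrays was well above background. Type 3 was the lowest type for 7 of these, Bmpr1b among them, type 1 for 3 and type 2 for 1. Over all 50 genes, type 3 was the lowest for 31, where 40.9% of all genes tested had their lowest iHep level in that type. The ligands Inhba, Bmp3, Gdf10, Inhbb and Tgfb2 and the activin trap Fst were lowest in type 3, while Gdf15, Tgfbi and Ltbp2 were highest there. Type 3 also had the lowest summed signal of both the hepatocyte and the fibroblast markers among the iHep types, as given above. For a list of 6 epithelial markers its sum was the highest, at 716 against 446 and 404 in types 1 and 2. The part of these marker signals in the differences was not tested.

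**Figure D3:**
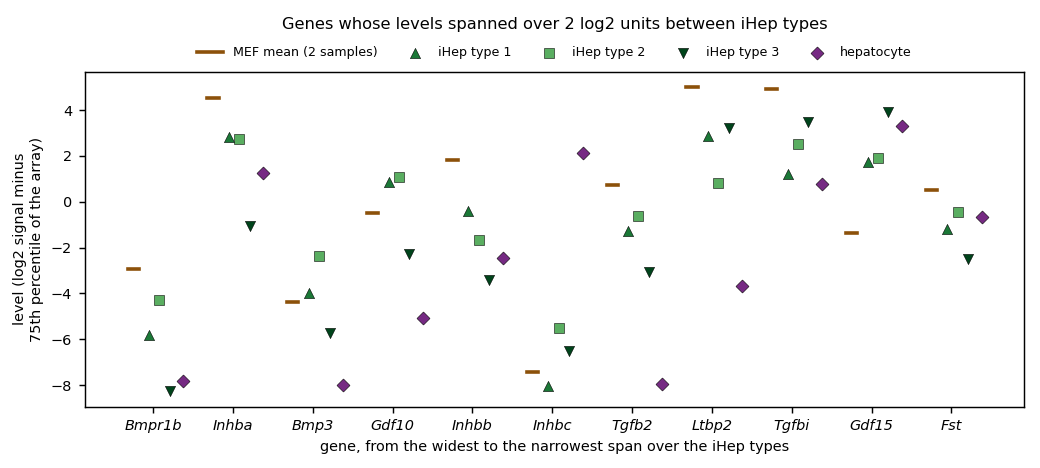
Levels (y axis, log2 processed signal minus the 75th percentile of the array) of the 11 genes whose iHep types spanned over 2 log2 units, with the mean of the 2 MEF samples as a bar and hepatocytes as a diamond. Type 3, the downward triangle, is the lowest iHep type for 7 of the 11, and for Bmpr1b and Inhbc only type 2 was well above background.

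Other genes of the pathway were taken from a list of 65 further ligands, receptors, regulators and matrix partners, of which 64 were on the array and 56 were tested. In iHep against MEF 1 of the 56 rose and 19 fell (median -0.86), in hepatocytes against MEF 9 rose and 27 fell (median -1.42), and 17 were higher and 16 lower in iHep than in hepatocytes (median 0.64). Of all genes tested, 10.1% were called higher and 13.2% lower in the first comparison, 28.4% and 25.1% in the second and 22.1% and 27.1% in the third, with medians of -0.044, 0.145 and -0.174. The 1 that rose in iHep was Itgb6, an epithelial integrin subunit that activates latent TGF-beta (at least 3.79-fold, adjusted p = 0.0376). Among those that fell were Chrdl1, a Chordin-like BMP trap, which was at least 19.5-fold lower (adjusted p = 0.00376), and the BMP ligand Gdf6, which was called lower (adjusted p = 0.0284) with 1 of 3 iHep arrays well above background.

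The 2 endothelial-type components Acvrl1 (receptor ALK1) and Eng (co-receptor endoglin) both fell in iHep. Acvrl1 was well above background on 1 of 3 iHep arrays (adjusted p = 0.0159, no fold given), and Eng changed by -3.39 ± 0.75 (10.4-fold, adjusted p = 0.0332). Of the 10 endothelial markers, 4 were called lower and 2 higher in iHep than in MEF. Their summed signal was 2.70 to 3.47 in MEF and 0.574 to 2.53 in iHep. The value of 2.53, that of type 1, rested mostly on Lyve1 (level 1.14 there), which was called higher, as was Vwf. The markers called lower were Kdr (at least 67.5-fold), Erg (at least 59.9-fold), Emcn (at least 33.15-fold) and Tek (at least 2.60-fold). The part of endothelial signal in the changes of Acvrl1 and Eng was not tested. Ski, a repressor of Smad-driven transcription, fell by 2.05 ± 0.21 (4.14-fold, adjusted p = 0.00457), whereas its relative Skil changed by -0.31 ± 0.24 (adjusted p = 0.399). The ubiquitin ligases Smurf1 and Smurf2 had changes of -0.70 ± 0.25 (adjusted p = 0.113) and -0.53 ± 0.17 (adjusted p = 0.0891). Smad9, the BMP Smad also called Smad8, was not well above background in iHep, and its level of -3.30 in hepatocytes was above that of MEF (adjusted p = 0.00986), where 2 of 3 arrays were well above background. Thbs1, an activator of latent TGF-beta, and Pmepa1, a feedback inhibitor, had changes in iHep of -2.37 ± 0.62 (adjusted p = 0.0516) and -2.83 ± 0.92 (adjusted p = 0.0872).

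A list of 26 genes widely used as readouts of TGF-beta had 1 called higher and 14 called lower in iHep against MEF (median -2.37), 2 and 22 in hepatocytes against MEF (median -7.19), and 17 higher and 1 lower in iHep than in hepatocytes (median 4.62). The shares of all genes called higher and lower were 10.1% and 13.2%, 28.4% and 25.1%, and 22.1% and 27.1%, with medians of -0.044, 0.145 and -0.174. Many of these genes are matrix or contractile genes of fibroblasts, and the summed fibroblast marker signal was lower in the same order of groups. Col1a1, Col1a2 and Col3a1 are in both lists and among the brightest fibroblast markers in MEF, so the shared order is not a separate observation. The part of fibroblast signal in these counts was not tested. Skil, Pmepa1 and Thbs1 are also in the list of other pathway genes, so that list and this one are not separate sets. The gene called higher was Junb, an AP-1 transcription factor subunit (1.97 ± 0.34, adjusted p = 0.0166). The lowest fitted changes were those of the matrix genes Postn (-7.93 ± 1.60, adjusted p = 0.0264), Eln (-5.42 ± 0.40, adjusted p = 0.00190) and Col3a1 (-4.92 ± 1.22, adjusted p = 0.0456). Ccn2, a matricellular protein, is a usual short-term readout. Ccn2 levels were 5.66, 6.71 and 6.66 in MEF, 5.88, 5.85 and 4.57 in iHep and -0.62 in hepatocytes. The iHep arrays overlapped with MEF, and the change in iHep did not pass (-0.74 ± 0.54, adjusted p = 0.374). Ccn2 was 111-fold lower in hepatocytes than in MEF (-6.80 ± 0.73, adjusted p = 0.00178).

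A list of 15 genes used as readouts of BMP had 1 called higher and 3 lower in iHep against MEF (median -0.29), 4 and 6 in hepatocytes against MEF (median -0.35), and 3 and 3 in iHep against hepatocytes (median -0.56), beside all-gene shares of 10.1% and 13.2%, 28.4% and 25.1%, and 22.1% and 27.1% and medians of -0.044, 0.145 and -0.174. Smad9 is in this list and in that of other pathway genes. Atoh8, a bHLH factor linked to hepcidin control, rose in iHep by 1.89 ± 0.46 (3.70-fold, adjusted p = 0.0437), and the 3 that fell were the transcription factors Gata2 (-2.70 ± 0.46, adjusted p = 0.0166), Dlx5 (-2.52 ± 0.42, adjusted p = 0.0156) and Hey1 (-1.84 ± 0.41, adjusted p = 0.0345). Hamp, which encodes hepcidin, stood at 6.06 in hepatocytes, was not well above background in MEF and was so on 1 iHep array only (-6.92, -5.91 and -7.10). Hamp was at least 5088-fold higher in hepatocytes than in MEF (adjusted p = 0.000222), iHep was below hepatocytes (adjusted p = 0.000220), and the change in iHep against MEF did not pass (adjusted p = 0.0683). Hjv, the hepcidin co-receptor hemojuvelin, which was named after its values were seen, was well above background in hepatocytes alone (level 2.60, at least 462-fold above MEF, adjusted p = 0.000223).

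**Figure D4:**
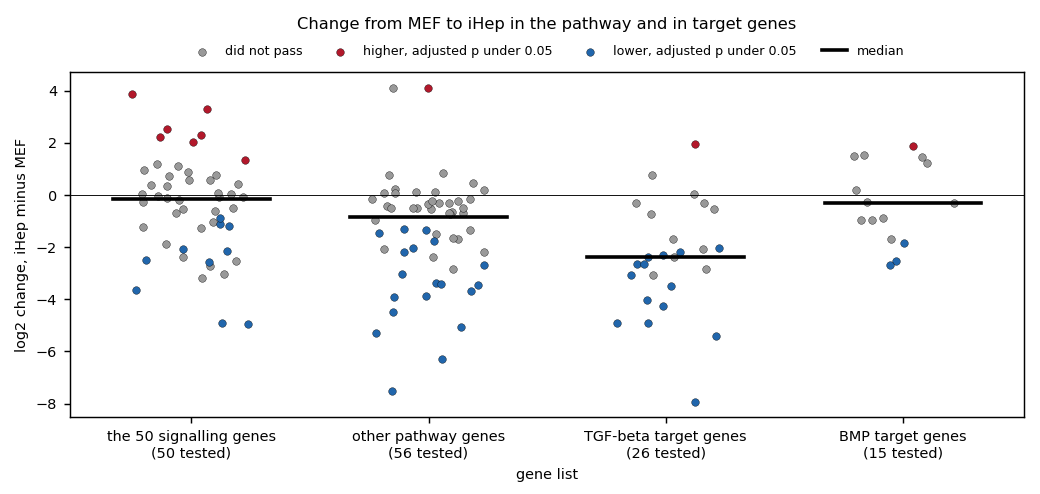
Log2 change of iHep minus MEF (y axis) for each tested gene of the 4 lists on the x axis, with horizontal spread added only to separate points. Black bars are medians (-0.15, -0.86, -2.37 and -0.29 from left to right), and red and blue points are genes called higher and lower. Skil, Pmepa1, Thbs1 and Smad9 appear in more than 1 list.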

How the data were processed

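RNA of 7 samples was labelled with Cy3 and hybridised to 1 array each. Per the file headers and the submitters' processing notes, Agilent Feature Extraction 9.5.1.1 turned the images into a background-subtracted, linear intensity per spot (the processed signal), which the authors deposited without scaling between arrays. Mean and local background intensity, also deposited, served 1 alternative. The deposited flags per spot, a unit called other here, mark spots well above background, saturated or outlying. The authors also deposited a table of intensity values whose columns share 1 distribution (medians 66.3 to 66.4, r with the log2 scanner signal 0.9988 to 0.9999), so its direction is settled, though no source used here says how it was made.

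Between 66 and 104 outlier spots an array were dropped and spots of one probe averaged, which left 41138 of 41174 probes. The 75th percentile of signal ran from 608 to 1484 and the share of probes well above background from 60.2% to 68.7% over the arrays. Levels are log2 of the processed signal minus the 75th percentile. Genes were named through RefSeq, build GRCm38.p6, by accession (24350 probes), symbol (6298) or synonym (2421), and 8069 probes kept the name of the scanner file. The brightest probe on average stood for a gene, and a gene was tested if all arrays of 1 group or more had it well above background. Probe positions are those of the array annotation, build mm8.

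MEF 2 and MEF 3 differed by 0.50 to 0.92 times the SD that repeated spots predict, and MEF 1 and MEF 2 by 3.67 to 4.44 times, in classes of signal. limma 3.58.1 in R 4.3.3 fitted all 3 groups at once (3 residual degrees of freedom), with Benjamini-Hochberg adjustment, and was tested on simulated data. Lower bounds set the brighter group's mean against the array's lowest level still well above background, or the probe's own level if higher, averaged over the dimmer group. The number of arrays limits the precision.

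Members and gene lists were chosen with earlier results of these data known. A member's level is given for every array if it was called in any comparison or spanned over 2 log2 units between iHep types, other members by ranges. Of each list, the called genes with the 3 highest and 3 lowest changes in iHep are named, with a fixed set of genes named whatever their result, except items not reported here. Alternatives were 3 separate MEF samples, the slide or replicate block, quantile normalization, normexp (offset 50), the authors' table, 2 other filters, the mean of probes, and leaving out each sample.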

Additional observations from a re-analysis of the deposited data

How the results depend on the processing

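Over 1873 recomputed changes of the 50 genes, 1690 kept their side of the threshold, 122 lost a call, 61 gained one and no called change reversed. Calls kept under every alternative that gave a value numbered 4 in iHep against MEF, 15 in hepatocytes against MEF and 17 in iHep against hepatocytes. In iHep against MEF (7 higher, 10 lower), 3 separate MEF samples gave 9 higher and 17 lower, and the slide block, which compares within slide 1 and leaves MEF 1 as a lone sample, gave 1 and 3. Leaving out 1 sample gave 1 to 7 higher and 3 to 12 lower. In hepatocytes against MEF it gave 4 to 8 higher and 14 to 24 lower. Lone samples in these fits are assumed to vary like the others. The replicate block with 3 separate MEF samples gave 8 higher and 13 lower. Deviations from the group mean on MEF and iHep arrays that share a number had r = 0.029, -0.015 and -0.001, so no pairing by number showed. With MEF 2 and MEF 3 nearly the same, these values cannot exclude a shared source, and samples were not treated as paired in the main fit. Over all genes, the 1924 higher and 2535 lower in iHep against MEF became 3158 and 4149 with 3 separate MEF samples, 752 and 917 within slide 1 and 684 and 958 without MEF 1. Without iHep type 1 they were 1213 and 1656. Testing only genes well above background on every array, with fewer genes tested, gave 3540 instead of 5430 higher in hepatocytes against MEF and 3436 instead of 5189 lower in iHep against hepatocytes. Genes not well above background limit 9 of the 50 to bounds or no fold in some group.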
